A study of Mus musculus with 16 samples.

Results

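The DMRT family comprises transcription factors that share the DM domain, a zinc-binding fold first described in the sex-determination proteins Doublesex of the fly and MAB-3 of the worm. These proteins bind DNA as dimers or higher complexes, and several of them act in gonads, where *Dmrt1* keeps Sertoli cells male and controls when spermatogonia leave mitosis. Other members are best known from muscle, spinal cord and brain. The 7 genes described here are *Dmrt1*, *Dmrt2*, *Dmrt3*, *Dmrta1*, *Dmrta2*, *Dmrtb1* and *Dmrtc2*, which were chosen by gene symbol out of the 35983 genes in the expression table.

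The study asked what the nuclear receptor LRH1, the product of *Nr5a2*, does in the Sertoli cells and in the germ cells of the mouse testis. Stranded mRNA libraries were made from whole testes of 16 samples in 4 groups of 4, all on a mixed 129Sv and C57Bl/6J background. At postnatal day 1 (P1), *Lrh1* flox/- mice with *Nanos3-Cre*, which acts in fetal germ cells, were set against *Lrh1* flox/- mice without Cre, so that both P1 groups carried 1 deleted allele in all cells. At postnatal day 3 (P3), *Lrh1* flox/flox mice with *Dhh-Cre*, which acts in differentiating fetal Sertoli cells, were set against *Lrh1* flox/flox mice without Cre. Library input was 500 ng of RNA for 3 samples and 400 ng for 1 sample in each P1 group, and 400 ng for all P3 samples. The labels do not say how many animals gave a sample.

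Each value below is 1 mean per group, made by the authors, in FPKM (fragments scaled to the length of the gene and to the size of the library). The values per sample are not used here, so there is no SD and no test. Whether a difference is larger than the spread between replicates was not tested here. Depth per sample is unknown from these means. Ratios are log2 of mutant mean over control mean with 0.1 FPKM added to each, which understates differences of genes at low levels. A gene was kept in a comparison when its mean over both groups was at least 0.5 FPKM, and a ratio of 1.5-fold or more is described as past the limit.

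The targeted gene itself was low and lower in both mutants. The mean of *Nr5a2* was 0.491 FPKM in P1 *Nanos3-Cre* mutants, against 0.764 FPKM in P1 controls, and 0.609 FPKM in P3 *Dhh-Cre* mutants, against 1.15 FPKM in P3 controls (log2 ratios of -0.55 and -0.81). Whole-gene FPKM in whole testis is a limited check of an allele deleted in 1 cell type. The defining genes of the labelled tissue were present in every group: *Sox9* of Sertoli cells had means between 15.0 and 50.1 FPKM, and *Ddx4* of germ cells between 2.05 and 13.5 FPKM.

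The DM domain is the part that defines the family, and its coding sequence is shown for all members because it is what the 7 genes have in common. Each stretch was found in the coding sequence by the spacing of its 8 zinc-binding codons (Cys or His), runs 5′ to 3′ on the coding strand over 30 codons (90 bases), and has those 8 codons in capitals. The genome build is GRCm38. Each gene had exactly 1 such stretch, and each stretch lay within 1 exon. The stretch of *Dmrt1* is in exon 1 of 5 (chr19:25506073-25506162, plus strand), that of *Dmrt3* in exon 1 of 2 (chr19:25610883-25610972, plus strand), and that of *Dmrt2* in exon 2 of 4 (chr19:25673818-25673907, plus strand). On chromosome 4, the stretch of *Dmrta1* is in exon 1 of 2 (chr4:89688564-89688653, plus strand), that of *Dmrta2* in exon 2 of 3 (chr4:109980067-109980156, plus strand) and that of *Dmrtb1* in exon 1 of 4 (chr4:107684055-107684144, minus strand). The stretch of *Dmrtc2* is in exon 2 of 9 (chr7:24872605-24872694, plus strand).
Dmrt1: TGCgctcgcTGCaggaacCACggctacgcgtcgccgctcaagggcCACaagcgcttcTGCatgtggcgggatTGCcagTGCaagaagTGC
Dmrta1: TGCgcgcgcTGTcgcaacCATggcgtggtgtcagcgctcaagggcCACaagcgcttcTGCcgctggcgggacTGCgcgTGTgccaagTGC
Dmrta2: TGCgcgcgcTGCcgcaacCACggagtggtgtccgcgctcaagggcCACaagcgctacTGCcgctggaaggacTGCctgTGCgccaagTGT
Dmrt3: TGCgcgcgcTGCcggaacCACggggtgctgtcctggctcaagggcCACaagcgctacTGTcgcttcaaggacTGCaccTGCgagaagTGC
Dmrt2: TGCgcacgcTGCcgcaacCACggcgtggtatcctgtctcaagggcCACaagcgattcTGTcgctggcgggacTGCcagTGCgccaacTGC
Dmrtb1: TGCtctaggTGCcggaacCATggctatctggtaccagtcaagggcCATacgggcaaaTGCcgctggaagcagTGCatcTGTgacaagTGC
Dmrtc2: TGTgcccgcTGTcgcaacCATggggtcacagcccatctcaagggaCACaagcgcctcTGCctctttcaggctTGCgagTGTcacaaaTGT

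The search fixed the residues of the 8 capitalised codons, so their presence in all 7 genes is no finding, and the bases varied both within and between these codons. *Dmrta1* and *Dmrta2*, which belong to the subgroup with an additional DMA domain, shared 79 of 90 bases (87.8%), the highest of the 21 pairs. *Dmrt1* shared 69 of 90 bases with *Dmrta1* (76.7%), its closest match here, and 58 of 90 with *Dmrtb1* (64.4%), its most distant. The lowest pair was *Dmrtb1* and *Dmrtc2*, with 51 of 90 bases (56.7%), although both are known from spermatogenesis in the mouse. The domain begins at codon 74 of 374 in *Dmrt1* and already at codon 7 of 359 in *Dmrtb1*. Stretches this different are not near-identical copies of each other.

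*Dmrt1* accounted for most of the DMRT message in every group. Summed over the 7 genes, mean FPKM came to 33.6 in P1 *Nanos3-Cre* mutants, 32.4 in P1 controls, 41.3 in P3 *Dhh-Cre* mutants and 81.6 in P3 controls. *Dmrt1* made up 78.5% of the sum in P1 mutants, 80.2% in P1 controls, 75.7% in P3 mutants and 74.5% in P3 controls. FPKM is scaled to gene length, so levels can be compared between genes. The order of the means was *Dmrt1*, *Dmrta1*, *Dmrt2*, *Dmrt3*, *Dmrtb1*, *Dmrtc2* and *Dmrta2* in all groups except the P3 *Dhh-Cre* mutants, where *Dmrtc2* (0.914 FPKM) stood just above *Dmrtb1* (0.889 FPKM). With no spread over samples, neighbours in this order cannot be said to differ. At P1, 4 of the 7 genes had a mean of at least 0.5 FPKM in each group, and at P3, 6 of 7 did.

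**Figure D1:**
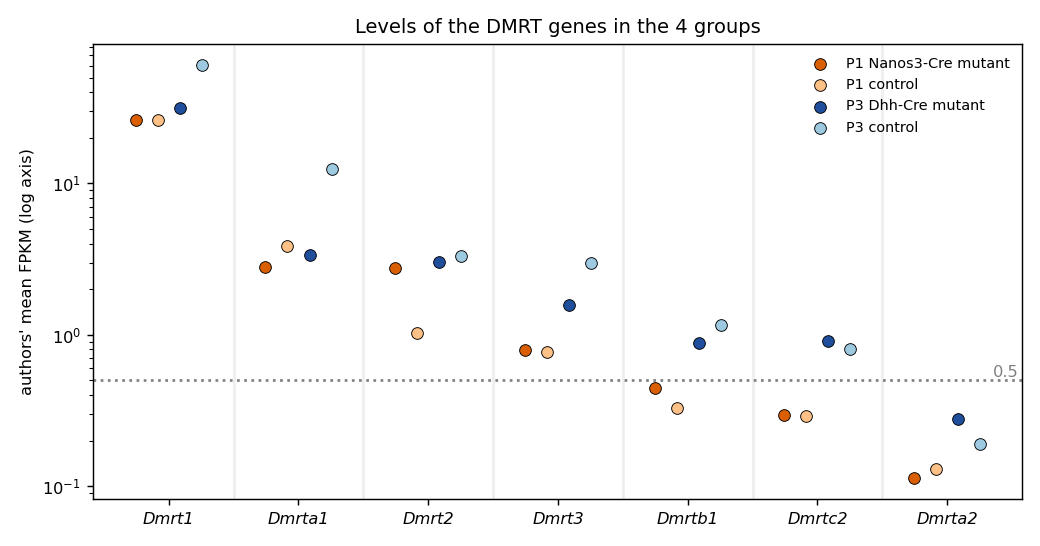
The authors' mean FPKM (log axis) of each DMRT gene, with 1 point per group in the order P1 *Nanos3-Cre* mutant, P1 control, P3 *Dhh-Cre* mutant and P3 control, and a dotted line at 0.5 FPKM. *Dmrt1* lies above all other members in every group, at 31.3 FPKM in P3 *Dhh-Cre* mutants and 60.8 FPKM in P3 controls, and *Dmrta2* lies below 0.5 FPKM throughout.

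In P3 testes with *Dhh-Cre*, *Dmrt1*, *Dmrta1* and *Dmrt3* had lower means than in P3 controls. *Dmrta1* showed the largest ratio of the family (3.60-fold lower), followed by *Dmrt1* (1.94-fold lower) and *Dmrt3* (1.85-fold lower). Of the 6 members kept, these 3 were lower by 1.5-fold or more, while 8.34% of the 16923 genes kept were, and no member was higher by that much, against 12.5% of all genes. At 2-fold, *Dmrta1* was the 1 member past the limit on the lower side (3.58% of all genes) and 0 were past it on the higher side (4.75%). The median log2 ratio of the 6 members was -0.61, beside 0.00 over all genes kept, with 5 members lower and 1 higher.

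*Dmrt1*, the Sertoli and germ cell factor that holds back the female programme in postnatal Sertoli cells, had a mean of 31.3 FPKM in P3 *Dhh-Cre* mutants, against 60.8 FPKM in P3 controls. Its log2 ratio was -0.96, and 3.82% of all genes kept had a lower one. *Dmrt1* ranked 1279 from the highest of 35983 genes in P3 mutants and 516 in P3 controls, and so was among the abundant messages of both groups: 96.4% of genes had a lower mean in the P3 mutants and 98.6% in the P3 controls. The P3 mutant mean lay nearer to the 26.0 FPKM of P1 controls than to that of P3 controls. P1 controls also differed from both P3 groups in age, *Lrh1* genotype and RNA input.

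*Dmrta1* encodes DMRT4, whose loss in mice has been tied to ovarian follicles that hold several oocytes. Its mean was 3.37 FPKM in P3 *Dhh-Cre* mutants, against 12.4 FPKM in P3 controls (log2 ratio -1.85). Few genes had a lower ratio, 0.674% of those kept. The mutant mean was also below the 3.87 FPKM of P1 controls, a group that differs in age, *Lrh1* genotype, Cre and RNA input. Column totals differed as well, with 334736 FPKM in P3 mutants and 382861 FPKM in P1 controls. This small difference therefore cannot be read as a fall below the P1 level. *Dmrt1* stood 9.27 times above *Dmrta1* in P3 mutants and 4.90 times above it in P3 controls.

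*Dmrt3*, known from spinal cord interneurons that shape gait, lies just downstream of *Dmrt1* and was far less abundant. Its mean was 1.56 FPKM in P3 *Dhh-Cre* mutants, against 2.97 FPKM in P3 controls (log2 ratio -0.88), and 4.45% of genes kept had a lower ratio. *Dmrt2*, which acts in somites and muscle precursors, had nearly equal means of 3.04 FPKM in P3 mutants and 3.32 FPKM in P3 controls (log2 ratio -0.12). *Dmrt3* and *Dmrt2* thus had unlike ratios although they lie next to each other.

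*Dmrtb1* and *Dmrtc2*, known from spermatogenesis, were inside the 1.5-fold limit at P3. *Dmrtb1* (DMRT6), which in mouse spermatogonia acts at the step from mitosis to meiosis, had 0.889 FPKM in P3 mutants and 1.15 FPKM in P3 controls (log2 ratio -0.34). *Dmrtc2* (DMRT7), which pachytene spermatocytes need in the mouse, had 0.914 FPKM in P3 mutants and 0.806 FPKM in P3 controls (log2 ratio 0.16). *Dmrta2* (DMRT5), a factor of cerebral cortex development, was under the minimum with 0.280 FPKM in P3 mutants and 0.190 FPKM in P3 controls. For genes this low, the FPKM added weighs heavily in the ratio.

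**Figure D2:**
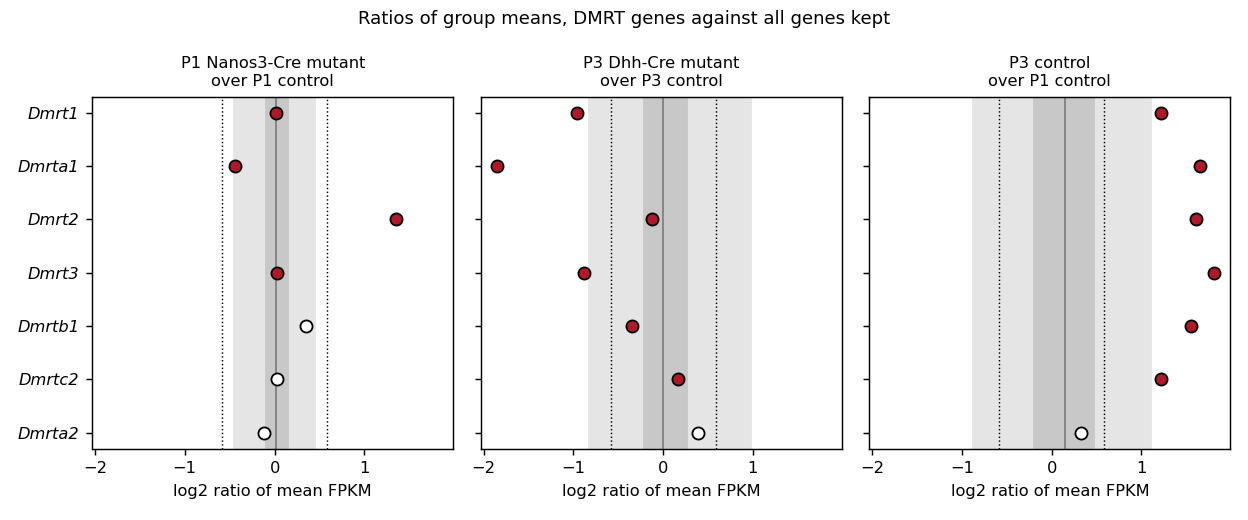
Log2 ratios of mean FPKM (0.1 FPKM added) of the DMRT genes in the 3 comparisons named above the panels. Filled points are members kept and open points members under the minimum, dark and light grey bands cover the middle 50% and 90% of all genes kept, the grey line is their median and dotted lines mark 1.5-fold. *Dmrta1*, *Dmrt1* and *Dmrt3* lie left of the light band for P3 mutants, *Dmrt2* right of it for P1 mutants, and every member but *Dmrta2* right of it for P3 controls over P1 controls.

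The DMRT genes that were lower at P3 are set here beside markers of the cells that could hold their message. Of 25 Sertoli genes, 23 had a lower mean in P3 *Dhh-Cre* mutants and 22 were past 1.5-fold lower, with a median log2 ratio of -1.52. This list was chosen with earlier results of these data known, and some of its genes are ones that the paper reports as lower in this comparison. The summed level of the list was 972 FPKM in P3 mutants and 2605 FPKM in P3 controls. *Cst9* and *Inha*, the most abundant of the list, had 55.5 and 212 FPKM in P3 mutants, against 187 and 498 FPKM in P3 controls. *Dmrta1* (-1.85) lay within the lower range of this list, with 5 of the 25 Sertoli genes below it. *Dmrt1* (-0.96) and *Dmrt3* (-0.88) lay at its upper end, with 19 and 20 of the 25 Sertoli genes below them.

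Germ cell genes were divided between the P3 groups. Of 24 germ cell genes kept, 10 were higher and 14 lower in P3 *Dhh-Cre* mutants, with a median of -0.04. Past 1.5-fold, 4 were lower, namely *Nanos2*, *Ret*, *Gfra1* and *Etv5*, and 0 were higher. The list summed to 207 FPKM in P3 mutants and 225 FPKM in P3 controls. *Dazl*, an RNA-binding protein of germ cells, had 43.5 FPKM in P3 mutants and 43.4 FPKM in P3 controls, and *Etv5*, a factor of spermatogonial self-renewal, had 14.1 FPKM in P3 mutants and 21.4 FPKM in P3 controls. Of the 24 germ cell genes, 1 lay below *Dmrt1* and 0 lay below *Dmrta1*. *Dmrt1* therefore took a place between the medians of both lists. The paper states that P3 mutant testes had several-fold fewer Sertoli cells, and it therefore read only changes larger than that loss. The stated loss was larger than the fold differences of *Dmrt1* and *Dmrt3* and smaller than that of *Dmrta1*. In RNA of whole testis, fewer cells of a type and less RNA per cell cannot be told apart. The part of cell number in these ratios was not tested.

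Genes of the other testis cells had higher means in the same P3 mutants. The median log2 ratio was 1.09 for 8 genes of interstitial mesenchyme, 1.24 for 6 of mesothelium, 1.00 for 7 of macrophages, 0.66 for 6 of endothelium, 0.45 for 8 of Leydig cells and 0.45 for 6 of peritubular myoid cells. All genes of the first 4 of these lists were higher, and the mesenchymal list summed to 2296 FPKM in P3 mutants and 1058 FPKM in P3 controls. No gene of these lists was at 0 in all groups. Genes of red cells and neutrophils had lower means, with a median of -2.72 over 11 genes and of -0.97 with a minimum of 1 FPKM. Whether the make-up of the samples moved the DMRT values was not tested.

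**Figure D3:**
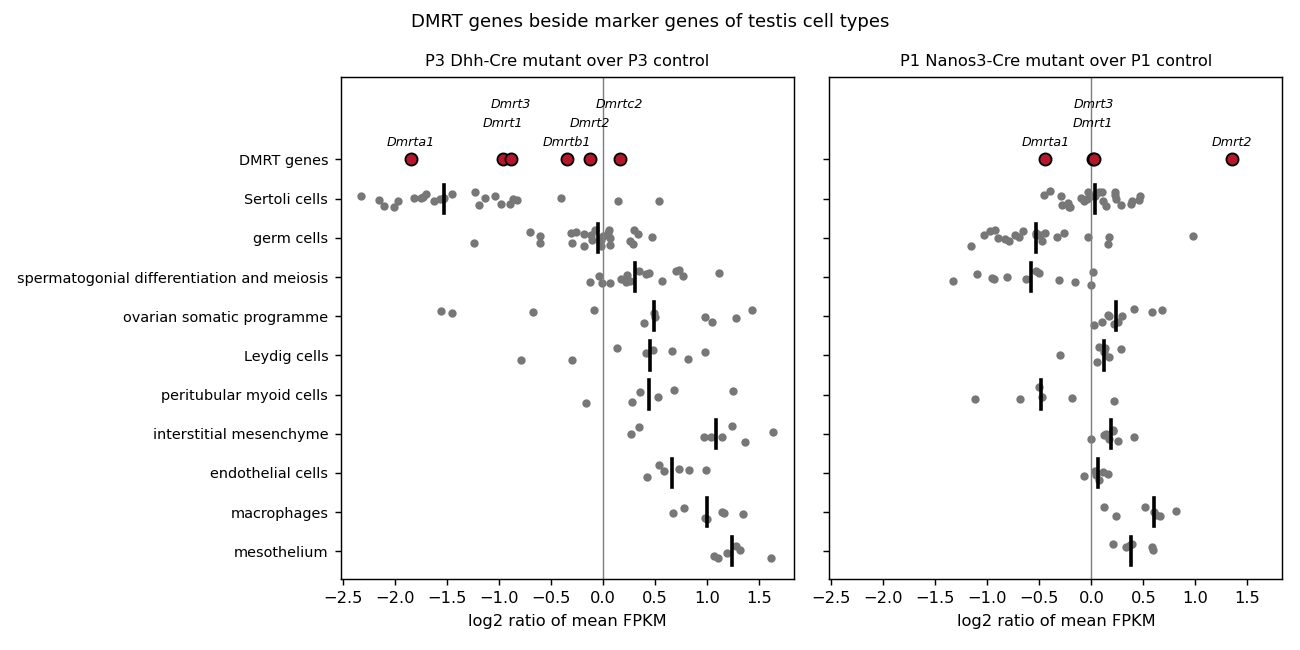
Log2 ratios of mean FPKM of the DMRT genes kept (red points, names above) and of marker genes kept in 10 lists (grey points, spread vertically for legibility, with the list's median as a bar), for P3 *Dhh-Cre* mutants over controls on the left and P1 *Nanos3-Cre* mutants over controls on the right. On the left *Dmrta1* (-1.85) and *Dmrt1* (-0.96) both lie within the range of the Sertoli genes. *Dmrt1* lies between the median of these (-1.52) and that of the germ cell genes (-0.04), with 6 of the 25 Sertoli genes above it. On the right *Dmrt2* (1.35) lies beyond all points of these lists. The red cell and neutrophil list is not plotted, and its highest P1 ratio was 2.92.

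The ovarian somatic programme is a list of genes of somatic cells of the ovary. DMRT1 is known to hold back some of them in Sertoli cells of the mouse, but the list is not a set of DMRT1 targets. Of 11 such genes kept at P3, 7 were higher and 4 lower in *Dhh-Cre* mutants, 4 and 3 of them by 1.5-fold or more, with a median log2 ratio of 0.49. The most abundant, *Hsd17b1* and *Inhba*, differed in direction. *Hsd17b1*, an oestrogen-making enzyme, had 39.2 FPKM in P3 mutants and 107 FPKM in P3 controls, and *Inhba*, an activin subunit, had 91.0 FPKM in P3 mutants and 64.3 FPKM in P3 controls. Several others were picked after their values were seen because they define granulosa cells or the ovarian WNT pathway. *Foxl2* had 1.19 FPKM in P3 mutants and 0.520 FPKM in P3 controls, and *Rspo1* had 14.5 FPKM in P3 mutants and 5.32 FPKM in P3 controls. *Esr2*, an oestrogen receptor of granulosa cells, differed in the opposite direction, with 0.660 FPKM in P3 mutants and 2.13 FPKM in P3 controls. The paper also lists *Esr2* among genes regulated by *Lrh1* in Sertoli cells. The log2 ratios of *Esr2* (-1.56) and *Hsd17b1* (-1.45) were near the Sertoli list median of -1.52. The part of Sertoli cell number in them was not tested. *Cyp19a1*, the aromatase gene, was at or under 0.040 FPKM in all groups.

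At P1 the mean of *Dmrt1* was nearly the same in both groups. *Dmrt1* had 26.3 FPKM in P1 *Nanos3-Cre* mutants and 26.0 FPKM in P1 controls, a log2 ratio of 0.02. Of the 4 members kept, 1 (*Dmrt2*) was past 1.5-fold higher, beside 3.17% of the 16121 genes kept, and 0 were past 1.5-fold lower, beside 3.46%. At 2-fold the counts of members were again 1 higher (1.15% of all genes) and 0 lower (1.39%). The median of the 4 members, 0.02, equalled that of all genes kept. *Dmrt3* had 0.792 FPKM in P1 mutants and 0.776 FPKM in P1 controls, also without a visible difference. *Dmrta1* was lower, with 2.82 FPKM in P1 mutants and 3.87 FPKM in P1 controls (log2 ratio -0.44), which is inside the 1.5-fold limit, and 5.16% of genes kept had a lower ratio.

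*Dmrt2* stood apart at P1. Its mean was 2.76 FPKM in P1 *Nanos3-Cre* mutants, against 1.02 FPKM in P1 controls, a 2.55-fold ratio (log2 1.35) that 0.627% of genes kept exceeded. The P1 control mean was the low value of the 4 groups, since both P3 means, 3.04 and 3.32 FPKM, were near that of the P1 mutants. Whether 1 sample sets either P1 mean cannot be seen in group means. In the authors' own test at P1, *Dmrt2* was not among the few genes reported as significantly misexpressed. *Dmrtb1* (0.444 FPKM in P1 mutants, 0.327 FPKM in P1 controls), *Dmrtc2* (0.297 FPKM in P1 mutants, 0.290 FPKM in P1 controls) and *Dmrta2* (0.113 FPKM in P1 mutants, 0.131 FPKM in P1 controls) were all under the minimum.

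Germ cell genes were mostly lower in the same P1 mutants while *Dmrt1* was level. Of 22 germ cell genes kept, 19 had a lower mean in P1 *Nanos3-Cre* mutants and 10 were past 1.5-fold lower, with a median log2 ratio of -0.53. The list summed to 63.5 FPKM in P1 mutants and 90.6 FPKM in P1 controls. The authors' own test at P1 reported no gene of this list as significantly misexpressed. *Dazl* had 6.86 FPKM in P1 mutants and 12.9 FPKM in P1 controls. *Tex15*, a gene of spermatogonial differentiation and meiosis, had 7.71 FPKM in P1 mutants and 15.1 FPKM in P1 controls, and 11 of the 12 genes of its list were lower. Sertoli genes were divided, with 13 higher and 12 lower of 25 and a median of 0.04. *Dmrt1* at 0.02 therefore lay at the middle of the Sertoli list, and 19 of the 22 germ cell genes had a lower ratio. *Dmrta1* at -0.44 lay below 24 of the 25 Sertoli genes and below 6 of the 22 germ cell genes.

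Markers of several other cell types also differed between the P1 groups. Macrophage genes had a median log2 ratio of 0.60, with 7 of 7 higher and a summed level of 85.1 FPKM in P1 mutants and 55.9 FPKM in P1 controls. Mesothelial genes had a median of 0.38, with 6 of 6 higher and a summed level of 89.1 FPKM in P1 mutants and 65.8 FPKM in P1 controls. The list of red cell and neutrophil genes had a median of 0.93 over 11 genes and a highest ratio of 2.92, but its most abundant genes, *Hbb-bs* and *Hba-a1*, were lower, *Hbb-bs* with 187 FPKM in P1 mutants and 234 FPKM in P1 controls. Peritubular myoid genes differed in the opposite direction, with a median of -0.49, 5 of 6 lower and 2 past 1.5-fold lower. The part of such cells in the *Dmrt2* mean was not tested. All 10 ovarian genes kept at P1 had a higher mean in the mutants, with a median of 0.24 and 1 past the limit. *Foxl2* was under the minimum at P1 and so not among them. It had 0.739 FPKM in P1 mutants and 0.234 FPKM in P1 controls (log2 ratio 1.33), also higher in the mutants.

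P3 controls had higher means than P1 controls for every DMRT gene. Of the 6 members kept, 6 were past 1.5-fold higher and 0 lower, beside 18.5% and 10.1% of the 16521 genes kept. At 2-fold the counts of members were again 6 higher (6.36% of all genes) and 0 lower (3.89%). *Dmrtb1* and *Dmrtc2* passed the minimum only through their P3 means, so they were bound to be past 1.5-fold higher, and *Dmrtc2* past 2-fold. Their places in these counts are therefore no finding. With a minimum of 1 FPKM, which left both out, 4 members were past 1.5-fold higher, beside 2364 of the 14132 genes kept. *Dmrt1* had 60.8 FPKM in P3 controls and 26.0 FPKM in P1 controls (2.33-fold), and *Dmrta1* had 12.4 FPKM in P3 controls and 3.87 FPKM in P1 controls (3.15-fold). *Dmrt3* had 2.97 FPKM in P3 controls and 0.776 FPKM in P1 controls (3.50-fold), and *Dmrt2* had 3.32 FPKM in P3 controls and 1.02 FPKM in P1 controls (3.05-fold). The log2 ratios were 1.22, 1.66, 1.81 and 1.61, and between 1.46% and 3.96% of genes kept had a higher ratio than each of these.

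Age, *Lrh1* genotype (flox/flox at P3, flox/- at P1) and RNA input differ together between the controls and cannot be told apart. The comparison also shares its control means with both mutant comparisons, so it is no independent evidence on either. The median of all genes kept was 0.15 on the log2 scale, and above it *Dmrt1* was higher by 1.07 and *Dmrta1* by 1.51. Of genes past the limit, 64.7% were higher in P3 controls. With each column rescaled to 1 total the median moved up by 0.24 and this share became 85.1%, and with the median subtracted it was 45.9%. Under each scaling *Dmrt1*, *Dmrta1*, *Dmrt2* and *Dmrt3* stayed higher in P3 controls, by 1.07 or more.

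Germ cell genes had higher means in P3 controls too. Of 24 kept, 23 were higher than in P1 controls, with a median log2 ratio of 1.40, and *Dazl* had 43.4 FPKM in P3 controls and 12.9 FPKM in P1 controls. Sertoli genes had a median of 0.49, with 18 of 24 higher. *Dmrt1* at 1.22 exceeded 23 of the 24 Sertoli genes and 12 of the 24 germ cell genes. *Dmrta1* at 1.66 exceeded all 24 Sertoli genes and 13 of the 24 germ cell genes. Leydig genes were mostly lower, with a median of -1.14.

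The 3 members on chromosome 19 make up a cluster. *Dmrt1* (ENSMUSG00000024837, chr19:25505618-25604329) is followed on the same strand by *Dmrt3* (ENSMUSG00000042372, chr19:25610301-25623921) after 5972 bp and by *Dmrt2* (ENSMUSG00000048138, chr19:25672411-25678991) after a further 48490 bp. *Dmrt1* and *Dmrt3* had similar ratios in both mutant comparisons, 0.02 and 0.03 at P1 and -0.96 and -0.88 at P3, whereas *Dmrt2* had 1.35 at P1 and -0.12 at P3. The protein-coding genes outside the cluster were looked up after the values had been seen. *Kank1*, an actin regulator upstream of *Dmrt1*, had 13.8 FPKM in P3 mutants and 17.6 FPKM in P3 controls (log2 ratio -0.35), and *Smarca2*, a chromatin-remodelling ATPase beyond *Dmrt2*, had 7.91 FPKM in P3 mutants and 6.18 FPKM in P3 controls (0.35). The nearest annotated gene upstream of *Dmrt1* is a pseudogene, *AC132140.1*, listed at 0 in 3 groups and at 0.072 FPKM in P3 controls.

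A head-to-head antisense transcript, *2610016A17Rik*, starts 158 bp from *Dmrt2* on the opposite strand. It had 0.165 FPKM in P1 mutants, 0.103 FPKM in P1 controls, 0.054 FPKM in P3 mutants and 0.308 FPKM in P3 controls. All of its means were under the minimum, and unlike *Dmrt2* it was lowest in P3 mutants. The counting was specific for strand, so reads of the pair are not shared.

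The members on chromosomes 4 and 7 stand alone. *Dmrta1* (ENSMUSG00000043753, chr4:89679436-89694772) has its nearest annotated gene in the table, *Gm12610*, 215949 bp away, and this noncoding transcript stayed at or under 0.131 FPKM. *Cdkn2b*, a cell cycle inhibitor and the nearest protein-coding gene on that side, had 1.04 FPKM in P3 mutants and 1.07 FPKM in P3 controls, unlike *Dmrta1*. *Dmrtb1* (ENSMUSG00000028610, chr4:107676290-107684230, minus strand) lies 41229 bp from *Glis1*, which had 0.804 FPKM in P3 mutants and 0.858 FPKM in P3 controls, and 3898 bp from the pseudogene *Gm12899*, listed at 0 in 3 groups. *Dmrta2* (ENSMUSG00000047143, chr4:109978053-109983687) has the antisense transcript *Dmrta2os* 240 bp away, listed at 0 in both mutant groups and at 0.049 FPKM in P1 controls and 0.127 FPKM in P3 controls, and *Elavl4*, at or under 0.401 FPKM, on its other side.

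*Dmrtc2* (ENSMUSG00000011349, chr7:24870057-24877651) starts 116 bp from *Lypd4*, a gene on the opposite strand. *Lypd4* had 0.931 FPKM in P3 mutants and 0.419 FPKM in P3 controls (log2 ratio 0.99), a larger ratio than the 0.16 of *Dmrtc2*. On its other side *Rps19*, a ribosomal protein gene, had 22.8 FPKM in P3 mutants and 23.7 FPKM in P3 controls.

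Promoter sequences were found in the RefSeq table (GRCm38.p6) for 6 of the 7 members, as 7 windows of 250 bases before to 50 bases after a start. *Dmrt1* was not among them. The *Dmrta1* window (chr4:89687948-89688247) and a *Dmrtb1* window (chr4:107683540-107683839) lie inside the annotated gene, away from its outermost start. The outermost annotated start of *Dmrta1* was not searched. Both strands were searched for CAAGGNCA, the letters bound by receptors of the NR5A class to which LRH1 belongs, and for ACANTGT, a short form of the DMRT site that is its own reverse complement. No window held CAAGGNCA, which 6.71% of all 32851 promoter windows held. ACANTGT occurred only in the *Dmrta2* window, as ACACTGT starting at base -137 and as ACATTGT at base -55 from the start site, and 7.54% of all windows held it. A match is a description of letters, and its absence says only that these letters are not in this window.

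The *Dmrtc1* genes on chromosome X are named for the family but were not chosen by the rule and lack a complete DM domain. *Dmrtc1a* had 2.57 FPKM in P3 *Dhh-Cre* mutants, against 1.09 FPKM in P3 controls (log2 ratio 1.16), a direction opposite to that of *Dmrt1*, *Dmrta1* and *Dmrt3*. At P1 it had 0.772 FPKM in mutants and 0.721 FPKM in controls. *Dmrtc1b* was less abundant and also had a higher mean in the mutants, with 0.206 FPKM in P3 mutants and 0.069 FPKM in P3 controls, and *Dmrtc1c1* and *Dmrtc1c2* did not exceed 0.016 FPKM in any group. The sequences of the *Dmrtc1* genes were not compared here, and how reads were divided among any near copies is uncertain. A transcript named *Dmrt1i* lies on chromosome 5, not in *Dmrt1*, and stayed at or under 0.093 FPKM.

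Among the genes whose 4 group means were most like those of *Dmrt1* were *Ssh1*, *Clcn2*, *Npr1* and *Slc35g1*, out of 8308 genes at 5 FPKM or more. Likeness was the root mean square distance of log2 profiles over the 4 means, each less its own average, and ran between 0.05 and 0.07 for these genes. *Ssh1*, a cofilin phosphatase, had 12.0 FPKM in P1 mutants, 12.3 FPKM in P1 controls, 14.6 FPKM in P3 mutants and 26.4 FPKM in P3 controls. *Npr1*, the receptor of atrial natriuretic peptide, had 13.3 FPKM in P1 mutants, 12.8 FPKM in P1 controls, 15.0 FPKM in P3 mutants and 26.9 FPKM in P3 controls. With 4 points, close profiles are found for many genes.

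Other members had other companions among 16648 genes at 0.5 FPKM or more. Those of *Dmrta1* were *Gm41720*, *Nxph4* and *Slc47a2*, all lowest in P1 mutants and highest in P3 controls. *Slc47a2*, a cation exporter, had 1.51 FPKM in P1 mutants, 2.48 FPKM in P1 controls, 1.93 FPKM in P3 mutants and 7.70 FPKM in P3 controls. The companions of *Dmrt3* were *Ntn4*, *Gca* and *Neat1*, those of *Dmrtb1* were *Tmem8*, *Kdf1* and *Rhbdf2*, and those of *Dmrtc2* were *Ttc39d*, *Abcc4* and *Pmel*. For *Dmrt2* they were *1700013G24Rik*, *Prm1* and *Snora20*. *Prm1*, the protamine of late spermatids, which are not present at these ages, had 10.4 FPKM in P1 mutants, 3.33 FPKM in P1 controls, 12.5 FPKM in P3 mutants and 12.5 FPKM in P3 controls. Like *Dmrt2*, it had its one low mean in P1 controls.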

How the data were processed

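Whole-testis RNA of 16 samples in 4 groups was studied. The authors trimmed reads (Trim Galore 0.6.0, cutadapt 1.18), checked them (FastQC 0.11.8), mapped them with STAR 2.7.2a to GRCm38 and estimated strand-specific expression per gene on a GENCODE annotation. They deposited 1 mean FPKM per group for 35983 genes, and no source used here names the library total behind the FPKM. Tables of the authors' own comparisons, with log2 fold changes, adjusted p-values and repeated means, were not used.

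Ratios of means were taken with 0.1 FPKM added, genes under a mean of 0.5 FPKM over both groups were left out, and 1.5-fold and 2-fold limits were counted without a test. A limma fit planned for values per sample was not run. The members and the marker lists were chosen with earlier results of these data known. Named were the members, the *Dmrtc1* genes, *Nr5a2*, the nearest annotated gene on each side of a member, the 2 genes of each list with the highest mean and any at 0 in all groups, and the 5 genes most like *Dmrt1* or 3 most like another member at 0.5 FPKM or more. A gene that this rule names is not reported here. Neighbours *Gm8825* and *Gm12629* were not in the table. *Sox9*, *Ddx4*, *Foxl2*, *Rspo1*, *Esr2*, *Cyp19a1*, *Kank1*, *Smarca2*, *Cdkn2b*, *Dmrt1i*, *Nanos2*, *Ret*, *Gfra1* and *Nanos3* were named after their values were seen. For Leydig, myoid, mesenchymal, endothelial and mesothelial lists, the rule's genes were *Hsd3b1*, *Cyp17a1*, *Tagln*, *Acta2*, *Col1a1*, *Col3a1*, *Cdh5*, *Pecam1*, *Krt18* and *Upk3b*, given as list medians only.

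Gene positions come from GENCODE M21 on GRCm38, which held 99.7% of the gene IDs. DM domains were found in its coding sequences, in place of a protein table, which was not used here. Alternatives were other added FPKM values, minimum levels and fold limits, rescaled columns and a subtracted median. Python 3.11.15, numpy 2.4.6, pandas 2.3.3, Biopython 1.88 and matplotlib 3.10.9 were used. The ratio step alone was checked, by planting known fold changes on the control means, without simulated noise or replicates.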

Additional observations from a re-analysis of the deposited data

How the results depend on the processing

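No paired analysis was possible because the table holds 1 mean per group, and for the same reason no replicate could be left out. Of 105 member ratios recomputed under other settings, 101 moved by less than 1.5-fold and stayed on their side of the limit. The other 4 belong to P3 over P1 controls: with 1 FPKM added, *Dmrt3* had a log2 ratio of 1.16, *Dmrtb1* 0.70 and *Dmrtc2* 0.49, and with columns rescaled *Dmrta2* had 0.64. With a minimum of 5 FPKM, members past 1.5-fold became 0 higher at P1, 2 lower at P3 and 2 higher in P3 controls over P1 controls. In that last comparison they were 4 higher with a minimum of 1 FPKM and 5 higher with 1 FPKM added. With a 2-fold limit, 1 member was lower at P3. The median of the red cell and neutrophil list changed sign at P1 with a minimum of 1 FPKM, to -0.33, and at P3 it became -0.97, since fewer genes were kept. The medians of the other lists moved by less than 1.5-fold.

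Counts over all genes moved by more than 1.5 times mostly with the minimum, as it sets how many genes are counted. At P1, higher and lower genes past 1.5-fold numbered 302 and 363 with 0.5 FPKM added, 195 and 237 with 1 FPKM added, 2434 and 2825 with no minimum, 1481 and 1678 with a minimum of 0.1 FPKM, 284 and 302 with 1 FPKM, 53 and 40 with 5 FPKM, and 186 and 224 at 2-fold, against 511 and 557 as reported. At P3 they numbered 1172 and 933 with 1 FPKM added, 4739 and 3349 with no minimum, 3588 and 2406 with a minimum of 0.1 FPKM, 601 and 588 with 5 FPKM, and 803 and 606 at 2-fold, against 2107 and 1411 as reported. For P3 over P1 controls they numbered 1813 and 1096 with 1 FPKM added, 5718 and 998 with columns rescaled, 6183 and 3957 with no minimum, 4928 and 2801 with a minimum of 0.1 FPKM, 1032 and 710 with 5 FPKM, and 1050 and 643 at 2-fold, against 3051 and 1664 as reported. Group means carry no depth or replicate spread, which limits every ratio given.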

Other observations

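*Nanos3*, the gene after which the Cre of the P1 mutants is named, was 1 of 3 germ cell genes kept with a higher mean in P1 mutants, while 19 were lower. It had 2.11 FPKM in P1 *Nanos3-Cre* mutants and 1.03 FPKM in P1 controls (log2 ratio 0.98), the highest of the 22 germ cell genes kept. It was looked at after its value was seen. In P3 testes it had 3.55 FPKM in *Dhh-Cre* mutants and 3.85 FPKM in controls.

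Genes of spermatogonial differentiation and meiosis, the process in which *Dmrt1* and *Dmrtb1* act, had a median log2 ratio of 0.30 in P3 *Dhh-Cre* mutants, with 13 of 16 higher and 4 past 1.5-fold, beside a median of 0.00 over all genes kept. *Sohlh1*, a factor that starts this differentiation, had 12.9 FPKM in P3 mutants and 7.88 FPKM in P3 controls, and *Tex15* had 25.3 FPKM in P3 mutants and 17.1 FPKM in P3 controls. *Dmrtb1* (log2 ratio -0.34) was below and *Dmrtc2* (0.16) inside the range of that list, -0.12 to 1.12. In P3 controls over P1 controls all 15 genes kept were higher, with a median of 1.14.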
